A study of Mus musculus with 768 samples.

Results

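The small leucine-rich proteoglycans (SLRPs) are secreted core proteins built from leucine-rich repeats, and 9 of their genes were described here by their symbols: Bgn (biglycan), Aspn (asporin), Dcn (decorin), Lum (lumican), Omd (osteomodulin), Ogn (osteoglycin), Podn (podocan), Prelp and Fmod (fibromodulin). They are 9 of the 24490 endogenous genes in the count table. All 9 passed the filter on low values, a mean RPKM of at least 1 over all wells used. RPKM is the number of reads scaled to transcript length and to the total of the well. The members had been proposed as 2 shared genes, Bgn and Aspn, against genes restricted to the matrix fibroblasts, and that proposal was compared with the data member by member.

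The study sequenced 768 single fibroblasts by Smart-seq2, a plate-based method that reads whole transcripts without molecular identifiers, from 2 mammary tumors of MMTV-PyMT mice of 14 weeks (strain FVB/N-Tg(MMTVPyVT)634Mul/J, which carries the polyoma virus middle T antigen under the mouse mammary tumor virus promoter). All cells came from transgenic mice, and no tumor-free mouse was compared. The cells were sorted alive as EpCAM-, CD45-, CD31- and NG2-, a gate meant to remove epithelial cells, leukocytes, endothelial cells and pericytes. Each tumor filled 1 plate, so tumor and plate cannot be told apart, and the tumor was the replicate (n = 2). Whether the 2 tumors grew in different mice is not given in the sources used here. The wells with at least 10000 reads outside the ERCC spike-in RNAs were used, 373 of tumor 1 and 354 of tumor 2. A well of tumor 1 held between 10281 and 838772 such reads, with 219264 as the median, and for tumor 2 the bounds were 10476 and 1190516 around a median of 198180.

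The wells were clustered without any SLRP gene, and the classes were named from marker genes that the study had itself picked on these cells. The vCAF-like class (285 wells of tumor 1 and 253 of tumor 2) had Rgs5, Higd1b and Abcc9 among its leading genes, which are genes of cells around vessels. The mCAF-like class (77 and 67 wells), led by Cilp and Crabp1, carried the markers of matrix fibroblasts. The dCAF-like class was small (10 and 29 wells) and had Bglap, Mia, Trf and Scrg1 among its leading genes. A further 6 wells, led by the hemoglobin genes Hbb-b2 and Hbb-bt and by Alas2, stayed unnamed and entered no comparison. No class of dividing cells separated in the clustering used, although such a class appeared in 28 of the 50 repeated t-SNE runs and, in the run used, at each neighbourhood radius tried of 2.5 or less in place of 3.1. Each of the 10 vCAF-like, 10 mCAF-like and 10 dCAF-like markers was read in most wells of its own class.

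SLRPs sit on collagen fibrils in the extracellular matrix and are known to set how fibrils assemble and how thick they grow. Decorin and biglycan are close relatives that carry chondroitin or dermatan sulfate chains, and both can bind TGF-beta and other signals. Asporin belongs to the same class by sequence but carries no such chain. Lumican, fibromodulin and osteomodulin can carry keratan sulfate and are related by sequence to Prelp, while osteoglycin and podocan belong to further classes. Decorin is a textbook product of connective tissue fibroblasts.

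Several members lie side by side in the genome (build mm10, the same primary sequence as GRCm38). Aspn (chr13:49544443-49567565), Omd (chr13:49582462-49592822) and Ogn (chr13:49608046-49624501) follow each other on the plus strand, all within the span of Cenpp, which is on the minus strand. Dcn (chr10:97479609-97518143) and Lum (chr10:97565128-97572703) are also neighbours on the plus strand, with Kera next to Lum. Fmod (chr1:134037254-134048277) and Prelp (chr1:133910304-133921414) are adjacent protein-coding genes on opposite strands of chromosome 1. Bgn is on chromosome X (chrX:73483602-73495933) and Podn on chromosome 4 (chr4:108014791-108096445). No strand-aware counting is stated, so reads of overlapping exons on opposite strands cannot be told apart. Aspn shares 7 exonic bases with Cenpp, and Prelp shares 350 of its 3615 exonic bases with the antisense gene Gm15851, while Podn lies partly within the span of Scp2 and shares 0 exonic bases with it.

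The sequences upstream of 4 members are shown because Aspn, Omd and Ogn lie in a row while Aspn had its highest mean in another class than Omd and Ogn, and because Bgn was read in nearly every well. RefSeq (GRCm38.p6) gave a promoter entry for 7 of the 9 members, without Dcn and Lum. The 250 bases before the RefSeq start are printed 5′ to 3′ on the gene's strand, and capitals mark matches to any of 6 motifs searched on both strands.

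Bgn, chrX:73483351-73483600, plus strand: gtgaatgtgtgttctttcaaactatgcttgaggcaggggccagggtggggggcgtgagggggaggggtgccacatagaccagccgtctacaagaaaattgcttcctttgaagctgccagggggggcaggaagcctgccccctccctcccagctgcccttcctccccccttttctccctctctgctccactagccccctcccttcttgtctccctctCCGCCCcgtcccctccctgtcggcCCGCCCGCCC

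Aspn, chr13:49544193-49544442, plus strand: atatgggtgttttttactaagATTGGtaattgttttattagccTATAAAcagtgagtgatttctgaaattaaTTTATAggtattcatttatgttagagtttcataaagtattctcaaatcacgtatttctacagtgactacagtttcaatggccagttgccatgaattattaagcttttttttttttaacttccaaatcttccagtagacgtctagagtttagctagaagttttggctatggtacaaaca

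Omd, chr13:49582212-49582461, plus strand: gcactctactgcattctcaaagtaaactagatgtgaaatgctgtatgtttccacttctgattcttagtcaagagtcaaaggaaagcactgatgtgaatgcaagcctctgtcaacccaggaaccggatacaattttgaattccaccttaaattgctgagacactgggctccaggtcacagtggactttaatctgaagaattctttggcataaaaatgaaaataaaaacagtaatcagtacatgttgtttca

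Ogn, chr13:49607765-49608014, plus strand: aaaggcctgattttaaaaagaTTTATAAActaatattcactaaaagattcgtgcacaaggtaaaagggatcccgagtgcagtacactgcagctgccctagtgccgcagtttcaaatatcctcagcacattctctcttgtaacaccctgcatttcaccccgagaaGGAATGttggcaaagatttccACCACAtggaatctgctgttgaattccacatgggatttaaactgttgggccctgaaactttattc

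The Bgn window held 3 GC boxes (GGGCGG, read here from the minus strand), the last pair overlapping, and was 64.4% G or C. The Aspn window was 30% G or C and held 2 TATA boxes (TATAAA) and 1 CCAAT box. The Ogn window held 2 overlapping TATA boxes on opposite strands, 1 RUNX core (ACCACA) and 1 TEAD motif (CATTCC, read from the minus strand), and the Omd window held none of the 6. Among all 32817 promoter windows of the same length, 32.7% held a GC box, 12.4% a TATA box, 33.8% a CCAAT box, 14% the RUNX core, 12.6% the TEAD motif and 6.75% an AP-1 motif (TGANTCA). These matches describe letters in short windows and not binding.

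Bgn was the most abundant SLRP by RPKM in all 3 classes and in both tumors. Its mean RPKM was 2138 and 1753 in the vCAF-like wells of tumors 1 and 2, 5062 and 5187 in the mCAF-like wells, and 853 and 1343 in the dCAF-like wells. By mean RPKM it was gene 3 of 24490 in the mCAF-like wells of both tumors, and gene 11 and gene 12 in the vCAF-like wells of tumors 1 and 2. It was read in every vCAF-like and mCAF-like well, and in 9 of 10 and 29 of 29 dCAF-like wells. In the mCAF-like wells the RPKM of Bgn ranged from 1330 to 11830 with a median of 4655 in tumor 1, and from 1027 to 10401 with a median of 4941 in tumor 2. In the vCAF-like wells it ranged from 8.47 to 13317 with a median of 1896 in tumor 1, and from 12.9 to 8492 with a median of 1457 in tumor 2. The wells of these classes therefore overlapped, although the tumor means did not.

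Aspn went the other way. It was read in 284 of 285 and 243 of 253 vCAF-like wells, with mean RPKM of 678 and 664, and in 71 of 77 and 49 of 67 mCAF-like wells, with mean RPKM of 211 and 243. The dCAF-like wells were lowest, with mean RPKM of 17.2 and 118. In the vCAF-like wells Aspn ranged from 0 to 2418 with a median of 615 in tumor 1, and from 0 to 3473 with a median of 575 in tumor 2. In the mCAF-like wells the median was 133 and 34.0, with maxima of 1308 and 1525. Aspn was thus read in most wells of both large classes, at a mean level that was higher in the vCAF-like wells of both tumors.

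Dcn and Lum came after Bgn as the most abundant members by mean RPKM in the mCAF-like wells. Dcn was read in all 77 and 67 mCAF-like wells, at a mean RPKM of 2667 and 2317. The lowest, median and highest RPKM there were 56.8, 2074 and 9947 in tumor 1 and 104, 1787 and 8381 in tumor 2. Its mean RPKM was 73.7 and 28.6 in the vCAF-like wells and 530 and 409 in the dCAF-like wells. Lum was read in 75 of 77 and 66 of 67 mCAF-like wells, at a mean RPKM of 1687 and 1179, against 20.3 and 32.4 in the vCAF-like wells and 44.3 and 273 in the dCAF-like wells. The median of Lum there was 1403 and 806 RPKM, and its highest wells reached 6135 and 8039. In the vCAF-like wells the highest Dcn values were 3965 and 2167 and the highest Lum values 1119 and 3380, so a few wells of that class reached the mCAF-like range.

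Where Dcn or Lum was read in a vCAF-like well, it was typically by a single read. Dcn was read in 50.2% of the vCAF-like wells of tumor 1 (exact binomial 95% interval 44.2 to 56.1%) and in 39.1% of those of tumor 2 (33.1 to 45.4%), with a median of 1 read where it was read at all. After every well with at least 50000 reads was thinned to 50000, these shares of Dcn fell to 19.7 and 16.2%, whereas Dcn stayed in 100% of the mCAF-like wells. Lum was read in 40.7 and 23.7% of the vCAF-like wells, and in 16.7 and 10.7% after thinning, again with a median of 1 read. Of the vCAF-like wells with a Dcn read, 6.99 and 5.05% exceeded the tenth percentile of the mCAF-like wells, and of those with a Lum read 5.17 and 11.7% did. Whether the single reads came from the sorted cell or from free RNA was not tested. These intervals cover counting error only.

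**Figure D1:**
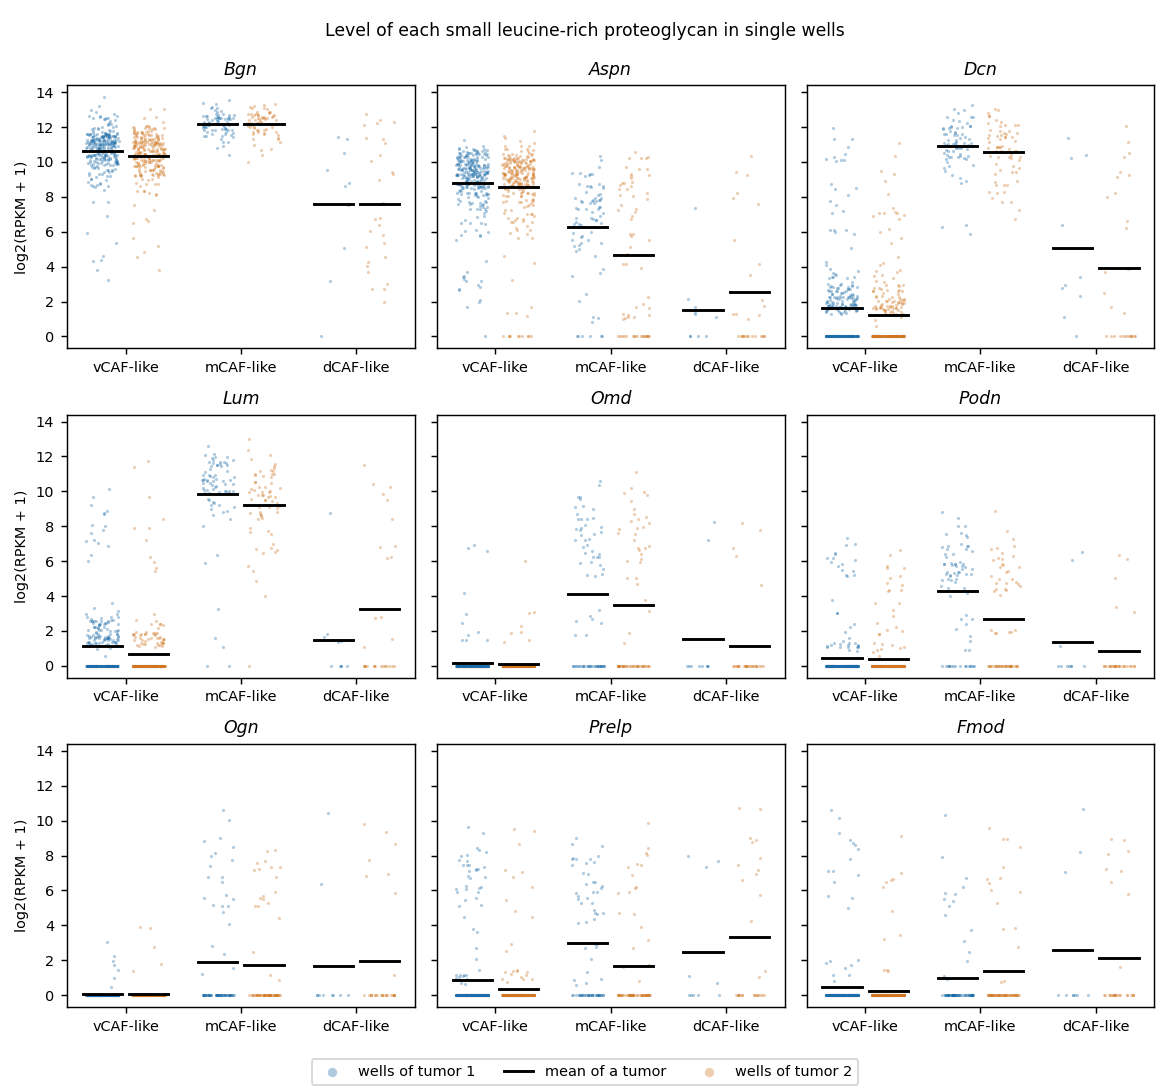
Level of the 9 SLRP genes in single wells, as log2(RPKM + 1), by class and tumor; each point is a well (blue tumor 1, orange tumor 2) and each black line the mean of a tumor. Bgn is high in vCAF-like and mCAF-like wells. Aspn is high in vCAF-like wells (tumor means of 8.81 and 8.55) and lower and more scattered in mCAF-like wells (6.29 and 4.68). Dcn and Lum are high in mCAF-like wells (Dcn tumor means of 10.93 and 10.56) and mostly at or near 0 in vCAF-like wells (1.65 and 1.24). Prelp and Fmod are read in scattered wells of each class.

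Omd and Ogn, the neighbours of Aspn, were read in the mCAF-like wells and hardly in the vCAF-like wells. Omd was read in 47 of 77 and 33 of 67 mCAF-like wells with a mean RPKM of 155 and 167, and in 11 of 285 and 8 of 253 vCAF-like wells with a mean RPKM of 1.27 and 0.358. Ogn was read in 24 of 77 and 20 of 67 mCAF-like wells with a mean RPKM of 71.1 and 31.0. In the vCAF-like wells Ogn had only 14 reads in all in tumor 1 and 17 in tumor 2, from 7 and 5 wells. The 3 genes in a row on chromosome 13 thus had mCAF-like to vCAF-like differences of opposite sign: below 0 for Aspn and above 0 for Omd and Ogn. In the dCAF-like wells Ogn had a mean RPKM of 148 and 84.5, which came from 2 of 10 and 8 of 29 wells, and a single well held 93.3% of the Ogn reads of tumor 1.

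Podn, a weak member by level, was read in 61 of 77 and 36 of 67 mCAF-like wells (mean RPKM 58.8 and 32.2) and in 40 of 285 and 31 of 253 vCAF-like wells (4.24 and 2.24). The dCAF-like wells had a mean RPKM of 15.9 and 6.75 for Podn. The mCAF-like shares of Podn were 79.2 and 53.7% in tumors 1 and 2, with a median of 289809 and 231285 reads per well, and with 1 plate a tumor this gap was not tested.

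Prelp and Fmod did not follow the pattern of genes restricted to the mCAF-like wells, and neither did Ogn. Ogn was read in 20 and 27.6% of the dCAF-like wells, against 31.2 and 29.9% of the mCAF-like wells. The mean RPKM of Ogn was higher in the dCAF-like wells of both tumors, at 148 and 84.5 against 71.1 and 31.0. Prelp was read in 55.8 and 31.3% of the mCAF-like wells, in 50 and 48.3% of the dCAF-like wells and in 16.8 and 9.49% of the vCAF-like wells. Its mean RPKM was highest in the dCAF-like wells, 62.5 and 191, against 54.8 and 41.7 in the mCAF-like wells and 19.6 and 9.38 in the vCAF-like wells. Fmod was read in 22.1 and 23.9% of the mCAF-like wells, 30 and 31.0% of the dCAF-like wells and 8.07 and 4.74% of the vCAF-like wells. A single well held 69.0% of the Fmod reads of the mCAF-like wells of tumor 1. For Prelp and Fmod the few wells with a read were often high, with a highest RPKM of 1685 for Prelp and 1608 for Fmod, both in dCAF-like wells.

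**Figure D2:**
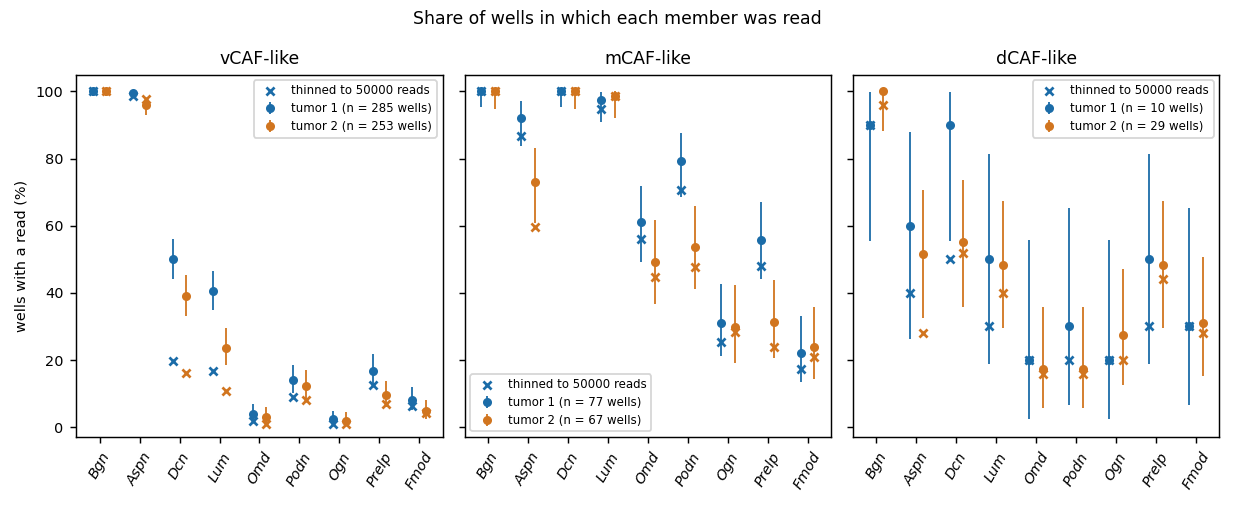
Share of wells (percent) in which each SLRP gene was read, by class and tumor; circles with exact binomial 95% intervals use all reads, crosses use wells thinned to 50000 reads. Bgn lies at or above 90% in each class, the circles of Dcn and Lum lie above 97% in the mCAF-like wells (the lowest cross is Lum in tumor 1, at 94.7%), and the vCAF-like shares of Dcn drop from 50.2 and 39.1% to 19.7 and 16.2% on thinning.

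The mix of SLRPs differed between the classes in the same direction in both tumors for Bgn, Aspn, Dcn and Lum between vCAF-like and mCAF-like wells. Of the summed RPKM of the 9 members, Bgn made 72.4 and 70.3% and Aspn 22.9 and 26.6% in the vCAF-like wells of tumors 1 and 2. In the mCAF-like wells Bgn made 50.7 and 56.1%, Dcn 26.7 and 25.1%, Lum 16.9 and 12.8% and Aspn 2.11 and 2.63%. The dCAF-like mix varied between the tumors, with Bgn at 44.5 and 53.3%, Dcn at 27.6 and 16.2%, Fmod at 10.6 and 2.71% and Prelp at 3.26 and 7.60%. A mCAF-like well held reads of 6.39 and 5.60 of the 9 members on average, a vCAF-like well 3.36 and 2.91. In the vCAF-like class 68 of 285 and 95 of 253 wells held Bgn and Aspn and none of the other 7, and no mCAF-like well did (0 of 77, exact 95% interval up to 4.68%, and 0 of 67, up to 5.36%). These shares depend on depth, and after thinning to 50000 reads they were 53.5 and 66.2% of the vCAF-like wells and 0% of the mCAF-like wells.

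**Figure D3:**
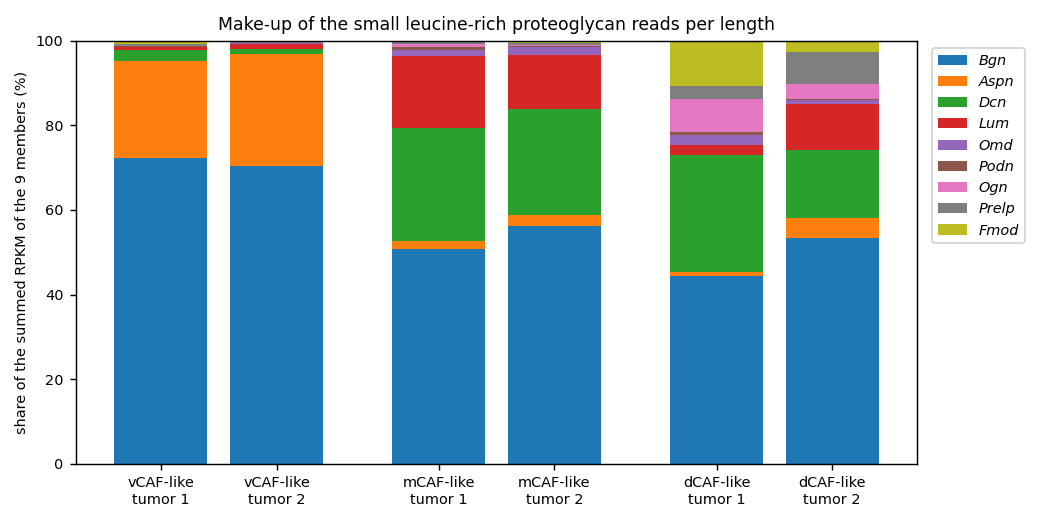
Share (percent) of the summed RPKM of the 9 SLRP genes taken by each, stacked by class and tumor. Bgn and Aspn fill nearly all of the vCAF-like bars, while Dcn takes 26.7 and 25.1% and Lum 16.9 and 12.8% of the mCAF-like bars.

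The classes were then compared on reads summed over the wells of a class and tumor, which gave 6 libraries, with edgeR's quasi-likelihood test over 11715 genes and Benjamini-Hochberg adjustment. A summed level does not separate fewer wells with a read from fewer reads per well. The classes were built from the expression of the same wells, so these tests do not bear on whether the classes exist. The p-values measure the spread between 2 tumors only.

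Between mCAF-like and vCAF-like wells, 5 of the 9 members passed at an adjusted p of 0.05, all higher in mCAF-like, where 3.64% of all genes were higher and 2.36% lower (426 and 276 genes, or 1050 and 192 with spike-in totals as the library size). The median log2 fold change of the 9 was 3.95, against -0.04 over all genes tested. Ogn differed by 8.91 ± 0.58 on the log2 scale (± SE, adjusted p = 0.0035), Omd by 7.57 ± 0.85 (adjusted p = 0.011) and Dcn by 5.95 ± 0.63 (adjusted p = 0.0092). Over the vCAF-like wells of both tumors together, the mean RPKM was 0.105 for Ogn and 0.840 for Omd. These 2 genes thus met the RPKM filter only through wells of other classes, so their entry into the test was not independent of the comparison. Lum differed by 6.35 ± 1.19 (adjusted p = 0.041) and Podn by 3.95 ± 0.55 (adjusted p = 0.019). The CPM of Dcn (counts scaled to the size of the library) was 125 and 46.9 in the vCAF-like libraries and 5755 and 4833 in the mCAF-like libraries, and that of Lum was 39.0 and 52.2 against 4515 and 2908, so the libraries of the classes did not overlap. With the tumor as a block, 4 members passed, where 2.34% of all genes were higher, and Lum did not (adjusted p = 0.072).

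The remaining members did not pass between mCAF-like and vCAF-like wells. Bgn was at a log2 fold change of 1.50 ± 0.35 (adjusted p = 0.071), Prelp at 2.08 ± 0.53 (adjusted p = 0.092), Fmod at 1.51 ± 0.84 (adjusted p = 0.46) and Aspn at -1.57 ± 0.80 (adjusted p = 0.41). Bgn CPM was 6165 and 4910 in the vCAF-like libraries and 15290 and 16052 in the mCAF-like libraries. That of Aspn was 1859 and 1699 against 574 and 623. A p that misses the threshold does not show equal levels, and for both genes the library values of the classes did not overlap. Bgn passed under 7 of 13 other settings, with log2 fold changes of 1.45 to 2.27 over all of them, and Aspn under 1, with -1.73 to -0.81. Among the 13, here and below, is the t-SNE run of next lowest cost. It gave every well the same class, so its result was fixed to equal the fit reported. The Fmod value rested on the tumor, at 3.46 without tumor 1 and 0.56 without tumor 2, where its CPM was 74.7 and 12.7 in the vCAF-like libraries and 110 and 139 in the mCAF-like libraries. Over the 13 settings Dcn ranged from 5.57 to 9.13, with the highest value from Leiden classes, Lum from 5.89 to 8.08 and Omd from 7.52 to 9.19. Of the members that passed, Dcn was at 6.70 and 5.53 without tumor 1 and without tumor 2, Omd at 8.92 and 6.92, and Ogn at 8.03 and 9.61.

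These calls varied over the t-SNE runs. The 50 runs differed in their random start, and the 28 with a dividing class also brought its libraries into the fit, so the part of the class members and that of the form of the fit were not told apart. Over these runs the number of members called between mCAF-like and vCAF-like wells ranged from 1 to 5 with a median of 4. The share of all genes called in each run is not given here. Counts over runs, in this and the other comparisons, therefore do not tell whether the members or all genes moved. Dcn and Ogn passed in 42 runs, Lum in 36, Omd in 35, Podn in 19, Bgn in 16 and Aspn in 8. Prelp and Fmod passed in 0 of 50, although DESeq2 on the classes reported here called Prelp (adjusted p = 0.0023) and the unadjusted edgeR p of Prelp was 0.0087 and that of Fmod 0.12. The log2 fold changes kept their sign over the runs and ranged from 5.08 to 6.02 for Dcn, 5.20 to 6.53 for Lum, 7.41 to 7.61 for Omd, 3.77 to 4.06 for Podn and 8.13 to 9.69 for Ogn. The Podn call was also lost with Leiden classes, at a log2 fold change of 4.76 (adjusted p = 0.15).

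The Dcn reads of the vCAF-like libraries came from few wells. In tumor 1, 4 of 285 wells held at least as many of the 7521 Dcn reads as all the other wells together, and in tumor 2, 2 of 253 wells did for 2465 reads. Of the vCAF-like wells, 43 in tumor 1 and 13 in tumor 2 had reads of at least 5 of the 10 mCAF-like markers, and they held 77.2 and 18.3% of the Dcn reads and 52.7 and 0.801% of the Lum reads. A single tumor 2 well that was not among these held 56.3% of the Lum reads. All 10 mCAF-like markers were read somewhere in the vCAF-like wells, at a mean summed RPKM of 95.2 and 111, against 6900 and 6239 in the mCAF-like wells. Sharing went the other way too, since all 10 vCAF-like markers were read in the mCAF-like wells, at a mean summed RPKM of 348 and 282 against 11447 and 11674 in the vCAF-like wells, and 69.4% of the mCAF-like wells had reads of at least 5 of them. The part of these wells in the Aspn values of the mCAF-like class was not tested. Leaving out the vCAF-like and dCAF-like wells with reads of 5 mCAF-like markers, a setting chosen after seeing the data, gave 7.16 for Dcn (adjusted p = 0.0036) and ended the call for Podn (log2 fold change of 3.94, adjusted p = 0.082), while Bgn passed (adjusted p = 0.031) and Aspn passed as lower (adjusted p = 0.036).

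Between dCAF-like and mCAF-like wells, 3 of the 9 members passed, all lower in dCAF-like, where 5.24% of all genes were lower and 2.83% higher. Bgn fell by 2.63 on the log2 scale (SE 0.36, adjusted p = 0.017), Dcn fell by 2.83 (SE 0.55, adjusted p = 0.038) and Podn fell by 2.71 (SE 0.53, adjusted p = 0.040). The CPM of Bgn was 1836 and 3239 in the dCAF-like libraries, below both mCAF-like libraries. Lum at -3.28 (adjusted p = 0.12), Omd at -2.58 (adjusted p = 0.084) and Aspn at -2.30 (adjusted p = 0.16) did not pass, and neither did Ogn at 0.97, Prelp at 0.74 and Fmod at 1.77 (adjusted p of 0.22, 0.43 and 0.27). The tumors differed in several of these values, and without tumor 1 and without tumor 2 Lum was at -2.07 and -6.01, Aspn at -1.56 and -4.22, Fmod at 0.93 and 2.41, Ogn at 1.50 and 0.64 and Prelp at 1.37 and -0.19. Over the 50 runs the sign of Ogn turned, down to -3.86, as did that of Prelp, with values of -0.85 to 0.76. The median log2 fold change of the 9 was -2.58, against -0.08 over all genes. With the tumor as a block the same number passed, where 3.12% of all genes were lower. Bgn passed in 50 of the 50 runs, whereas Podn passed in 22, Dcn in 20, Lum in 15 (log2 fold changes of -9.33 to -3.24 over the runs) and Aspn in 9 (-7.88 to -2.03). Over the 13 other settings Bgn ranged from -3.88 to -2.48 and Dcn from -4.32 to -2.56. The Podn call was lost with wells scaled to the same total (log2 fold change of -2.35, adjusted p = 0.075), with Leiden classes (-2.71, adjusted p = 0.34) and without the marker-sharing wells (-3.02, adjusted p = 0.10), and the Dcn call without wells that had reads of Epcam, Pecam1 or Ptprc (log2 fold change of -2.56, adjusted p = 0.064), a fold close to the one with all wells.

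Between dCAF-like and vCAF-like wells, 4 members passed, all higher in dCAF-like, where 4.78% of all genes were higher and 5.74% lower (560 and 673 genes, or 1015 and 386 with spike-in totals). Ogn differed by 9.88 ± 0.60 (adjusted p = 0.0017), Omd by 4.99 ± 0.76 (adjusted p = 0.018), Dcn by 3.11 ± 0.55 (adjusted p = 0.027) and Prelp by 2.82 ± 0.54 (adjusted p = 0.033). Here too, Ogn and Omd had met the RPKM filter only through wells outside the vCAF-like class. Aspn was at -3.87 ± 0.88 (adjusted p = 0.051) and passed under 7 of 13 other settings. Fmod at 3.28, Lum at 3.07, Podn at 1.24 and Bgn at -1.13 did not pass (adjusted p of 0.081, 0.13, 0.20 and 0.11). Without tumor 1 and without tumor 2, Prelp was at 3.86 and 1.62, Omd at 5.91 and 4.66, Aspn at -2.99 and -5.91, Fmod at 4.40 and 2.97, Lum at 3.74 and 0.85 and Bgn at -0.59 and -1.75. Over the 50 runs the sign of Lum turned, with values of -4.01 to 3.28, as did that of Podn, with -0.55 to 1.34. The median log2 fold change of the 9 was 3.07, against -0.08 over all genes. With the tumor as a block 3 passed, where 3.29% of all genes were higher, and Prelp did not (adjusted p = 0.080). Ogn, Omd and Dcn each passed in 35 of the 50 runs, Aspn in 28 (log2 fold changes of -9.51 to -3.62), Prelp in 17, Bgn in 11 (-2.69 to -1.11) and Lum in 4. The log2 fold changes over the runs were 1.54 to 3.20 for Dcn, 2.89 to 5.00 for Omd and 1.05 to 2.86 for Prelp. Over the 13 other settings Dcn ranged from 2.84 to 6.29, with the highest value from Leiden classes, Omd from 4.91 to 6.61 and Prelp, which passed under 9, from 1.28 to 3.54. The contrast shares its dCAF-like libraries with the one above and its vCAF-like libraries with the first.

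The dCAF-like values rested on few wells. In tumor 1 the top well of each gene, which need not be the same well, held 56.3% of the Dcn reads, 97.5% of the Lum reads, 81.3% of the Fmod reads and 93.1% of the Aspn reads. In tumor 2 the top well held 41.2% of the Dcn reads. Of the other members called against the vCAF-like wells, Omd was read in 2 of 10 and 5 of 29 dCAF-like wells. The top well held 58.7 and 54.0% of the Omd reads of tumors 1 and 2. For Ogn it held 93.3 and 49.3%, and for Prelp 41.8 and 42.0%. The dCAF-like wells with reads of at least 5 mCAF-like markers, 5 in tumor 1 and 12 in tumor 2, held 81.7 and 82.0% of the Dcn reads. Over the 50 runs the dCAF-like against vCAF-like log2 fold change of Lum ranged from -4.01 to 3.28 and that of Ogn from 4.29 to 9.95, and that of Podn from -0.55 to 1.34. Without the marker-sharing wells, Prelp between dCAF-like and vCAF-like wells came to 1.28 (adjusted p = 0.20). Without them Dcn between dCAF-like and mCAF-like wells came to -4.32 (adjusted p = 0.0044), and Bgn and Aspn passed as lower in dCAF-like than in vCAF-like wells, at -2.34 (adjusted p = 0.0075) and -4.78 (adjusted p = 0.0024).

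Markers of another cell type moved with the dCAF-like class. All 6 epithelial markers were read there, at a mean summed RPKM of 1013 in tumor 1 and 290 in tumor 2, against 7.20 to 26.3 in the other 2 classes. These means rested on few wells, with medians of 82.4 and 14.8 and highest wells of 5305 and 3407. Krt5 reached a mean RPKM of 509 in tumor 1 and 30.8 in tumor 2, Krt14 454 and 16.1, and Epcam, the gated surface protein's gene, 19.7 and 123. In the vCAF-like class the endothelial list summed to 58.3 and 116, from Emcn nearly alone, with Pecam1 and Cdh5 at 0 reads in both tumors. The part of these cells in the SLRP values was not tested. With wells that had reads of Epcam, Pecam1 or Ptprc left out, 6 members were higher in mCAF-like than in vCAF-like wells (3.26% of all genes), 2 were lower in dCAF-like than in mCAF-like wells (4.99%) and 4 were higher in dCAF-like than in vCAF-like wells (4.23%). The vCAF-like wells also had more spike-in reads, with a median of 14.4 and 12.5% against 6.00 and 5.98% in the mCAF-like wells, and scaling by spike-in totals moved the median log2 fold change of all genes between these classes to 0.72. On that scale Bgn was at 2.27 (adjusted p = 0.049) and Aspn at -0.81 (adjusted p = 0.57).

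**Figure D4:**
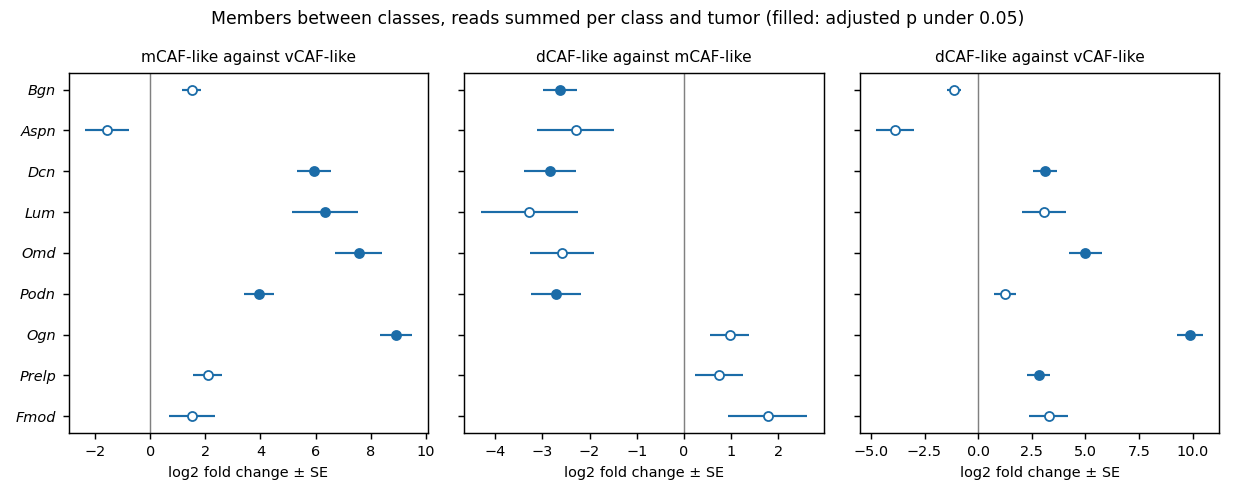
Log2 fold change ± SE of the 9 SLRP genes between classes, from reads summed per class and tumor (2 tumors a class, edgeR quasi-likelihood); filled circles have an adjusted p under 0.05. Ogn, Omd, Dcn, Lum and Podn lie at 3.95 or above in mCAF-like against vCAF-like wells, Aspn lies below 0 in each comparison without passing, and Bgn, Dcn and Podn are lower in dCAF-like than in mCAF-like wells.

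Some pairs of members moved together across wells. The following Spearman correlations are over wells of 1 tumor, which share a plate, so they are descriptions without p. Dcn and Lum, neighbours on chromosome 10, had a rho of 0.59 in tumor 1 (373 wells) and 0.61 in tumor 2 (354 wells), and still 0.60 and 0.66 within the mCAF-like wells (77 and 67). Within the vCAF-like wells Dcn and Lum were at 0.17 and 0.05 (0.11 and 0.19 in wells thinned to 50000 reads), although Pearson's r on the log2 values was 0.51 and 0.36 there. Dcn and Aspn were at -0.42 and -0.36 over all wells, and within the mCAF-like wells at 0.16 and -0.24. Fmod and Prelp were at 0.38 and 0.53 over all wells and at 0.36 and 0.39 within the vCAF-like wells, where only 14 and 7 wells held both. Ogn and Omd were at 0.43 and 0.42 over all wells and at 0.28 and 0.24 within the mCAF-like wells, and no vCAF-like well held both.

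**Figure D5:**
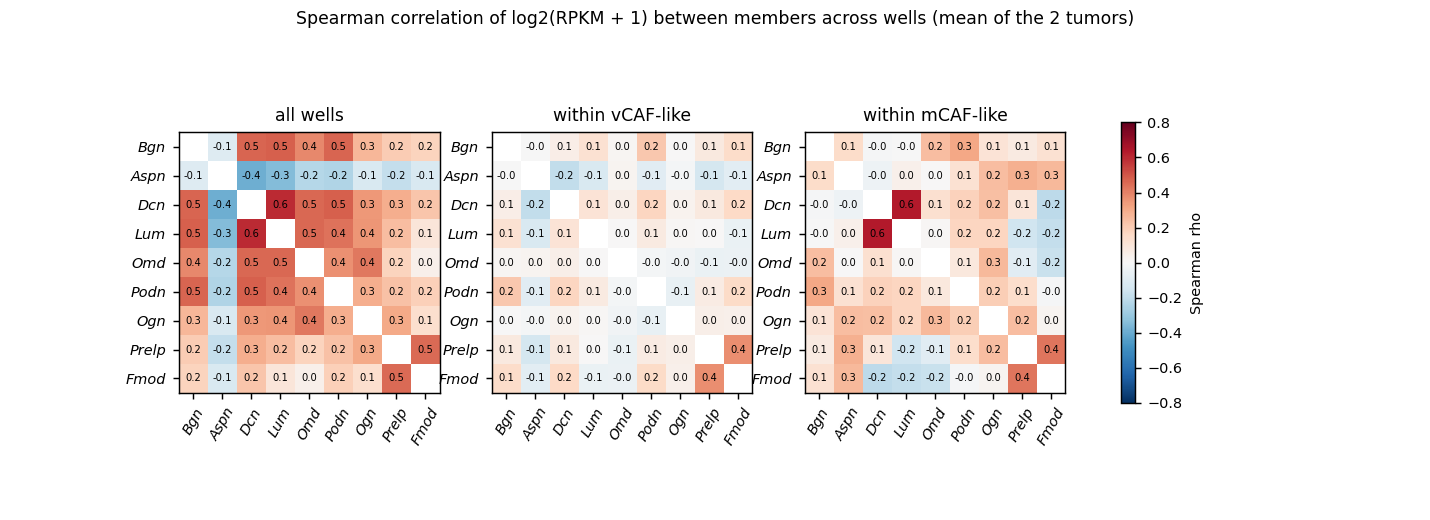
Spearman rho of log2(RPKM + 1) between SLRP genes, mean of the 2 tumors, over all wells and within the vCAF-like and mCAF-like wells. Over all wells Aspn is negative with the other 8, and Dcn with Lum is the only pair at 0.6 within the mCAF-like wells.

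The genes outside the family whose values followed each member most closely were taken by the lower of the 2 tumors' rho. For Bgn these were the fibrillar collagen genes Col5a2 (0.69), Col1a2 (0.67) and Col1a1 (0.67). For Aspn they were Ndufa4l2 (0.56), Abcc9 (0.56), which encodes a potassium channel subunit, and Rgs5 (0.55). Dcn was nearest to the PDGF receptor gene Pdgfra (0.66), Dpysl3 (0.64) and Cpxm1 (0.64), and Lum to Ptgfrn (0.61), Svep1 (0.60) and Itgbl1 (0.60). Omd was nearest to Cpxm1 (0.52), Tenm3 (0.51) and Pdgfra (0.50), Podn to Tpbg (0.50), Medag (0.49) and S100a16 (0.48), and Ogn to Dchs1 (0.45), Gja1 (0.41) and Hmcn1 (0.40). Prelp and Fmod had weaker partners, Fhl1 (0.38), Ckb (0.36) and Gas6 (0.36) for Prelp and Gas6 (0.29), Fhl1 (0.28) and Itga9 (0.27) for Fmod. Both lists hold Fhl1 and Gas6. Abcc9, Rgs5, Pdgfra, Cpxm1 and Svep1 are markers that named the classes.

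Genes that build or trim SLRPs were described in the same comparison, mCAF-like against vCAF-like wells. Unlike the SLRP family, these genes and the other proteoglycan core protein genes were not held out of the clustering. They could therefore have helped to shape the classes between which they were tested. Of 20 tested genes of chondroitin and dermatan sulfate chain synthesis, 3 were higher and none lower, where 3.64% of all genes were higher and 2.36% lower, with a median log2 fold change of 1.16 against -0.04 over all genes. They were Ust, a uronyl sulfotransferase (5.09 ± 0.81, adjusted p = 0.027), Csgalnact1, which starts chondroitin chains (4.19 ± 0.36, adjusted p = 0.0055), and Dsel, a relative of dermatan sulfate epimerase (1.99 ± 0.30, adjusted p = 0.024). Ust did not pass with the tumor as a block (adjusted p = 0.068). Csgalnact1 had only 2 and 8 reads in the dCAF-like libraries against 2088 and 1873 in the mCAF-like libraries. Of 5 tested keratan sulfate genes none passed edgeR, although 2 had an unadjusted p under 0.05 and 2 passed DESeq2. Over all 11715 genes the unadjusted p was under 0.05 for 2155, and DESeq2 called 1067 higher and 770 lower.

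Of 16 other tested proteoglycan core protein genes, 5 were higher in mCAF-like wells and none lower, against the same 3.64 and 2.36% of all genes, and their median log2 fold change was 1.12. Vcan, which encodes versican, differed by 3.11 ± 0.40 (adjusted p = 0.016), Gpc1, a glypican, by 2.66 ± 0.27 (adjusted p = 0.0084) and Tgfbr3, betaglycan, by 1.93 ± 0.26 (adjusted p = 0.017). The study had already named Vcan, like Dcn and Lum, as a matrix fibroblast gene from these same cells. Spock1, a testican, had 1 and 5 reads in the vCAF-like libraries and 590 and 755 in the mCAF-like libraries (adjusted p = 0.020). Of 3 tested genes of procollagen C-proteinase and its helpers, Pcolce2 passed, with 2 and 0 reads against 383 and 541 (adjusted p = 0.044, or 0.092 with the tumor as a block). With so few vCAF-like reads, Spock1 and Pcolce2 met the RPKM filter through wells of other classes.

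The other family genes, chosen for this comparison outside the 9, were Ecm2, Kera, Epyc, Optc, Chad, Nyx, Tsku and Podnl1, and 5 of these 8 passed the filter. None of the 5 passed edgeR between mCAF-like and vCAF-like wells, while 2 had an unadjusted p under 0.05 and 2 passed DESeq2. Of all 11715 genes, 2155 had such an unadjusted p, and DESeq2 called 1067 higher and 770 lower. Chad, which encodes the cartilage protein chondroadherin and is named here after its values were seen, was higher in dCAF-like than in vCAF-like wells by 10.80 ± 1.34 (adjusted p = 0.010). It had 2150 and 1263 reads in the dCAF-like libraries, 21 and 15 in the mCAF-like and 3 and 26 in the vCAF-like libraries. Chad was among the 10 leading genes of the dCAF-like cluster, although it was not used to build it. Epyc was read in 11 of 77 and 7 of 67 mCAF-like wells, Kera, the gene after Lum on chromosome 10, in 2 and 2, and Optc had 0 reads in all wells. Ecm2, the gene before Aspn, was read in 62.1 and 53.0% of the vCAF-like wells and in 64.9 and 49.3% of the mCAF-like wells.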

How the data were processed

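Smart-seq2 libraries of 768 sorted wells from 2 tumors were analysed. The authors aligned single-end reads to mm10 with STAR and deposited counts of reads per RefSeq gene (24490 genes and 92 ERCC spike-ins), with no molecular identifiers. The authors also deposited RPKM values, which for 8 of the 9 members scaled with the total of endogenous and spike-in reads, whereas the length implied for Dcn varied over wells with either total (interquartile range of 10.5% of its median with spike-ins, against 0.891 to 1.06% for the other members). From these, wells with at least 10000 non-ERCC reads were kept (727). The plate names in the well titles were read as the tumor, since the study states that each plate held 1 tumor. The study's own filter of wells, which used alignment metrics not analysed here, was not applied, so class sizes can differ from those of the study.

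Clustering followed the study: t-SNE (Rtsne 0.17, 30 components, perplexity 27, theta 0.5, 50 seeded runs, lowest cost) and DBSCAN with an eps of 3.1 and at least 5 points, on log2(RPKM + 1) of 557 variable genes with the SLRP family left out. Wells were thinned to 50000 or 10000 reads for shares. Reads were summed per class and tumor and tested with edgeR 4.0.16 (R 4.3.3, TMM, quasi-likelihood F-test, Benjamini-Hochberg) over the 11715 genes whose RPKM averaged 1 or more, with 3 residual degrees of freedom. DESeq2 1.42.0 was an alternative. The calculation was tested on simulated data. The 9 members, the gene lists and the markers were chosen with earlier results of these data known. Named genes were the members, the 3 genes most like each of them and up to 4 passing genes per list.

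Because each tumor gave wells of all 3 classes, the tumor was also fitted as a block. The libraries of a tumor deviated together only weakly, with correlations of 0.13, 0.079 and 0.021 between classes. No well repeated another well's counts. The sort gated out doublets and no doublet caller was run; vCAF-like and dCAF-like wells with reads of at least 5 mCAF-like markers were left out in an alternative.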

Additional observations from a re-analysis of the deposited data

Results flagged for a closer look

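The 41 wells left out for having fewer than 10000 reads outside the spike-ins were not part of any comparison, and 4 members were read there above the limit of 3 wells, which is 7.32% of the 41. Bgn was read in 87.8% of these wells, Aspn in 43.9%, Lum in 29.3% and Dcn in 24.4%. The wells had a median of 999 such reads each. The 95% exact binomial intervals were 73.8 to 95.9% for Bgn, 28.5 to 60.3% for Aspn, 16.1 to 45.5% for Lum and 12.4 to 40.3% for Dcn. Fmod and Prelp were read in 0 of the 41 wells. These wells have no class, so the values were set against no group.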

How the results depend on the processing

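The number of members called kept within 1.5 times of 5 (mCAF-like against vCAF-like), 3 (dCAF-like against mCAF-like) and 4 (dCAF-like against vCAF-like) under most alternatives. At an adjusted p of 0.001 it was 0 in each comparison with edgeR as reported, and 1, 0 and 1 both without the RPKM filter and with Leiden classes. Over all genes, the fit as reported called 0 at 0.001. Without the RPKM filter 26 of 17223 genes were higher and 20 lower in the first comparison, and 46 and 72 in the third. With Leiden classes these were 22 and 26, and 28 and 63, of 11710. In the fit as reported 7, 6 and 8 members had an unadjusted p under 0.05, where 2155, 2885 and 3014 of all 11715 genes did. DESeq2 called 6, 3 and 6 members at 0.001. Over all genes it called 647 higher and 429 lower, 490 and 763, and 697 and 756 at that threshold. DESeq2 gave 6 in dCAF-like against mCAF-like and 8 in dCAF-like against vCAF-like. Over the classes of all 50 t-SNE runs, added after seeing the data, the lowest numbers were 1, 1 and 0, the medians 4, 3 and 4 and the highest 5, 4 and 4. With the replicate block (the tumor) the numbers were 4, 3 and 3, and Lum and Prelp lost their calls as given above. In dCAF-like against mCAF-like wells Prelp, which did not pass, turned from 0.74 to -0.19 without replicate 2 (1.37 without replicate 1) and to -0.68 without the wells of the other classes that had reads of 5 mCAF-like markers, an alternative also added after seeing the data. Leaving out a tumor gave values with no test. Over all genes, edgeR called 426 higher and 276 lower between mCAF-like and vCAF-like wells, DESeq2 1067 and 770, and the block 274 and 157. Between dCAF-like and mCAF-like wells the numbers were 332 and 614, 1087 and 1503, and 186 and 365, and between dCAF-like and vCAF-like wells 560 and 673, 1242 and 1478, and 385 and 388.

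The clustering was repeated while its numerical settings were fixed so that it could be recomputed exactly. Under other settings of the linear algebra library a few wells of tumor 2 moved between the vCAF-like and dCAF-like classes, and the Lum call between mCAF-like and vCAF-like wells was lost in 1 of these repeats. The settings were fixed for reproducibility and not by the calls, and calls also varied over the 50 runs, 28 of which brought a further class into the fit. The t-SNE run of next lowest cost gave every well the same class, so it repeated the fit reported. K-means gave another class to 17 wells and Leiden clustering to 191. Leiden clustering left 62 and 92 wells of tumors 1 and 2 unnamed and put 23 and 18 into a dividing class. It kept 200 and 148 wells as vCAF-like. The libraries of its dividing class also entered the fit, so class members and form of the fit were not told apart there either. No dividing class separated in the clustering reported, so the comparison of dividing with vCAF-like wells was not run there. With Leiden classes it called 0 of the 9 members with edgeR (2 with an unadjusted p under 0.05), where 0.35% of 11710 genes were called, and DESeq2 was not run on it. In the 28 t-SNE runs with a dividing class, 0 to 1 members were called, with Dcn lower in 3 of them (log2 fold change of -4.21 to -3.61 over the 28 runs). Correlations between members moved in 83 of 108 alternative values, mean log2 levels in 46 of 81, shares of wells with a read in 36 of 108 and shares of summed RPKM in 8 of 27. With 2 tumors and 3 residual degrees of freedom, small differences cannot be resolved.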
